A study of Mus musculus with 8 samples.

Results

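Immune cells of diabetic and control mouse wounds were compared 5 days after wounding, 1 library against 1 library. Cells had to show over 200 nuclear genes and less than 20% of their UMIs (unique molecular identifiers, each standing for 1 captured RNA molecule) from mitochondrial genes, which left 7449 cells of the 35158 in all 8 libraries of the series. Of these 4183 came from the diabetic and 3266 from the control library of day 5. The mice were male C57BL/6J animals. Those of the diabetic group had been given streptozotocin (STZ), a toxin of the insulin-producing beta cells, at 120 mg/kg when 4 weeks old and after fasting for 12 h, and were used if blood glucose then reached 16.5 mmol/L. Those of the control group had the same back wounds without diabetes. Each library held CD45+ cells, the leukocytes of the wound, sorted from 5 pooled mice. The spread between mice is thus not measured, and no test of diabetic against control can be made with 1 library a side. Every difference below is a ratio of these 2 libraries, and its exact 95% Poisson interval covers counting error only. The model lacks beta cells and is not one of insulin resistance, and barcodes shared by the 2 libraries could not be counted because the barcodes had been renamed in each of them.

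A skin wound is first entered by neutrophils, which kill microbes and release cytokines, and by monocytes from the blood, part of which become macrophages. Macrophages later clear dead neutrophils and release growth factors, and neutrophils normally leave as repair goes on. Among the signals that hold neutrophils in the skin is the axis of IL-23, a cytokine of myeloid cells, and IL-17, which gamma-delta T cells of the dermis make in answer to IL-23 and IL-1.

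Control day 5 stood apart from the other libraries before any gene was compared. The filter removed 28.6% of its barcodes, 27.1% for their mitochondrial share, against 10.8% in diabetic day 5. Its neutrophil-like cells made up 8.11% of the cells, against 41.4% in control day 3 and 22.5% in control day 7. Cells of diabetic day 5 had a median of 3571 UMIs and 1058 genes, and cells of control day 5 had 8234 UMIs and 2424 genes. In all 22084534 UMIs were counted for diabetic and 31185750 for control day 5.

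Cells were grouped by clustering all 8 libraries, and each cluster was named by the marker list that stood highest in it. Neutrophil-like cells were 45.9% of diabetic day 5 (1922 cells, exact binomial interval 44.4 to 47.5%) and 8.11% of control day 5 (265 cells, 7.20 to 9.10%). The shares were the other way round for macrophage-like cells, which numbered 181 (4.33%) in the diabetic library and 1450 (44.4%, interval 42.7 to 46.1%) in the control library. Monocyte-like cells numbered 589 (14.1%) and 97 (2.97%), dendritic-like cells 532 (12.7%) and 190 (5.82%), and T cell-like cells 480 (11.5%) and 168 (5.14%). NK cell-like cells numbered 107 (2.56%, interval 2.10 to 3.08%) in diabetic day 5 and 8 (0.245%, interval 0.106 to 0.482%) in control day 5, too few for a comparison of genes. Another 250 cells of control day 5 and 11 of diabetic day 5 were osteoclast-like, and 816 and 351 cells lay in a shallow cluster that stayed unnamed. The sort for CD45, the filter on mitochondrial UMIs and the depth of the libraries can all set such shares. All markers of the 6 classes were detected in both libraries, and all stood above the other cells of their library but 1 of the 12 dendritic markers in diabetic day 5.

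**Figure D1:**
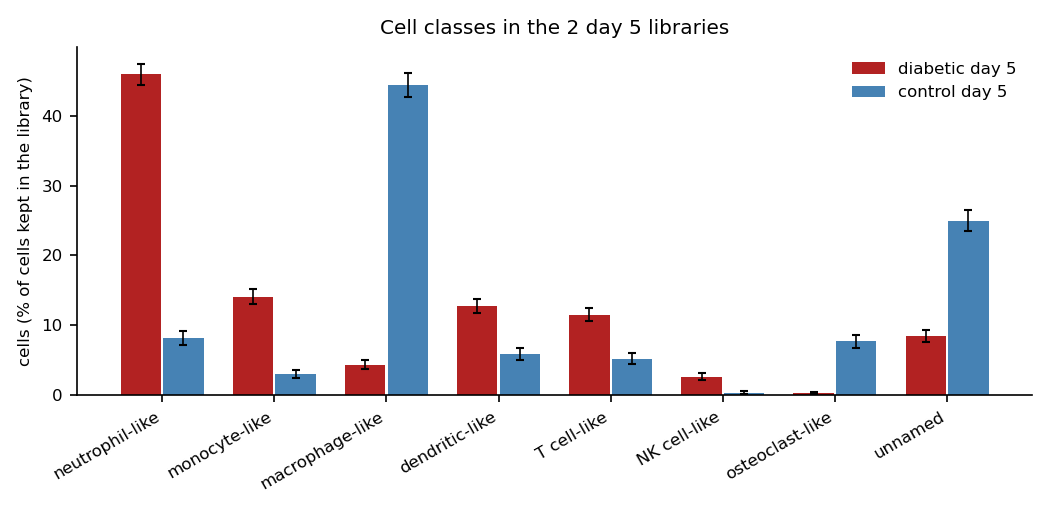
Share of the cells kept in each day 5 library (y axis, percent) by cell class (x axis), for diabetic day 5 (red) and control day 5 (blue), with exact 95% binomial intervals that cover counting error only. The bars of neutrophil-like cells stand at 45.9% and 8.11%, and those of macrophage-like cells at 4.33% and 44.4%.

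RNA that was free in the suspension, or that doublets brought, was measured through the markers of one class in the others. The summed level of the 12 macrophage markers in neutrophil-like cells was 2459 CPM (counts per 1000000 non-mitochondrial UMIs of the class) in diabetic day 5 and 10130 CPM in control day 5. In T cell-like cells it was 1588 and 10130 CPM, and in dendritic-like cells 1160 and 5146 CPM. Macrophage RNA was thus more frequent in these 3 classes of the control library, in which macrophage-like cells were most abundant, while in osteoclast-like cells (11 and 250 cells) the sums were 6757 and 5556 CPM. The 10 neutrophil markers went the opposite way, with 1811 CPM in macrophage-like cells of diabetic day 5 and 353 CPM in those of control day 5. Each gene was therefore also set against the lowest level it had in another named class of at least 50 cells of the same library. A gene is called "above the lowest class" below where its level in the class, in the library where it was higher, was at least 3 times that lowest level. Such a gene passes through the library where it is high, and genes that all classes use alike can hardly pass, so the rule describes the spread over classes and supports no call. Doublets were hardly tested, since the doublet caller marked 6 cells of diabetic day 5 and 0 of control day 5.

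**Figure D2:**
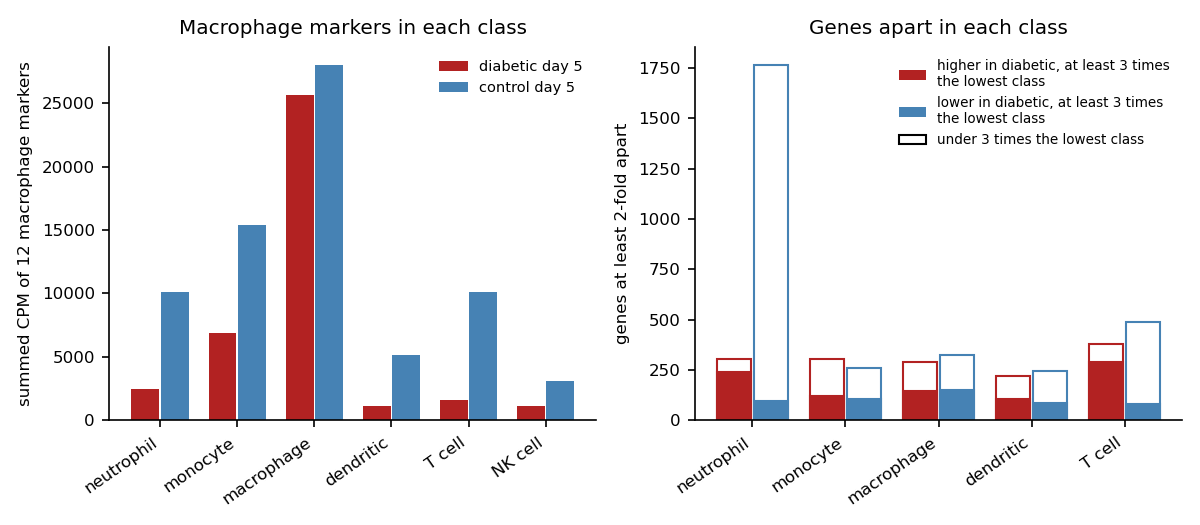
Left, the summed CPM of 12 macrophage markers (y axis) in each class of diabetic day 5 (red) and control day 5 (blue), at 2459 and 10130 CPM in neutrophil-like cells. Right, the number of genes at least 2-fold apart in each class (y axis), higher (red outline) or lower (blue outline) in diabetic day 5, with the genes above the lowest class filled. Of the 1765 genes lower in neutrophil-like cells 97 are filled.

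Some sequences are given first, to show the promoters of genes on which the results turn. They are read from RefSeq (GRCm38.p6) and span 250 bases before to 50 after the start of the gene. Cxcl2, a neutrophil attractant, stands for the inflammatory genes higher in diabetic neutrophil-like cells, Il17a and Il17f for the cytokines higher in diabetic T cell-like cells, and Retnla for the macrophage genes lower in diabetic wounds. Capitals mark the letters of 1 motif searched on both strands in each promoter: in Cxcl2 the letters GGG, any 2 bases and TTTCC (bound by NF-kappaB), in Il17a and Il17f the letters AGGTCA (a half-site of nuclear receptors), and in Retnla the letters TTC, any 4 bases and GAA (bound by STAT6).
Cxcl2, chr5:90903649-90903948, plus strand: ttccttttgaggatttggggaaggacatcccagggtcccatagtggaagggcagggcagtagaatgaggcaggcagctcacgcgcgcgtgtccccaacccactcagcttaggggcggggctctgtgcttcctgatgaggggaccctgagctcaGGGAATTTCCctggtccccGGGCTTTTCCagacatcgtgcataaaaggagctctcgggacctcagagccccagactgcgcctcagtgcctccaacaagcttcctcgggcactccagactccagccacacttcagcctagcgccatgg
Il17a, chr1:20730655-20730954, plus strand: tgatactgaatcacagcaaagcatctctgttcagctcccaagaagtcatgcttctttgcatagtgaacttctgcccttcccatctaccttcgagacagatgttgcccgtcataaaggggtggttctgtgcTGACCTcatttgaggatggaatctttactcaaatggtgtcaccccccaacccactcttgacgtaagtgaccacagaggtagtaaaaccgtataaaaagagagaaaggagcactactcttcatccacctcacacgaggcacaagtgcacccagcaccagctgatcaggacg
Il17f, chr1:20784221-20784520, minus strand: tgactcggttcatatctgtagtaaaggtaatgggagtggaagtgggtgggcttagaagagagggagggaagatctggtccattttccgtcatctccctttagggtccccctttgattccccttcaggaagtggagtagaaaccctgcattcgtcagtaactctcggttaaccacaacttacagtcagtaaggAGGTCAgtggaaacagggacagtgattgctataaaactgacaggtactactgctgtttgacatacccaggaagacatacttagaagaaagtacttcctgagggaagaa
Retnla, chr16:48842359-48842658, plus strand: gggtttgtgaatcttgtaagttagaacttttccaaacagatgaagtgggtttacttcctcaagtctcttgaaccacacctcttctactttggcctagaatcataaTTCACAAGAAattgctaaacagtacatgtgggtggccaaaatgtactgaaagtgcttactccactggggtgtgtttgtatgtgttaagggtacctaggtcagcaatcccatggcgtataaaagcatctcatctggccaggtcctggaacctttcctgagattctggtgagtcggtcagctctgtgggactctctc
Cxcl2 held 2 matches that lie close to each other upstream of the start, and the others held 1 each. Among all 27025 promoters of the same length in the table, 1.62% held the NF-kappaB letters, 16.0% the half-site letters and 6.99% the STAT6 letters, and the motifs searched do not overlap one another in these promoters. Among the 170 promoters found for the 240 genes higher and above the lowest class in diabetic neutrophil-like cells, 3.53% held the NF-kappaB letters and 14.1% held TGANTCA, an AP-1 motif found in 7.93% of all promoters. Among the 72 promoters found for the 97 genes lower and above the lowest class in the same class the shares were 2.78% and 16.7%. Among the 224 promoters of the 288 T cell-like genes higher and above the lowest class 14.7% held the half-site letters, and among the 65 of the 81 lower ones 9.23%. For the 149 macrophage-like genes lower and above the lowest class 113 promoters were found, of which 8.85% held the STAT6 letters. Among the 115 of the 147 higher ones the share was 5.22%. The 4 other inflammatory promoters searched for the NF-kappaB letters, those of Il1a, Tnf, Ccl3 and Il1f9, held no match in this window. A match is a description of the letters and no measure of binding.

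Over all cells together, the diabetic wound of day 5 carried more RNA of neutrophils, of the IL-23 and IL-17 axis and of cytotoxic cells, and less RNA of macrophages, osteoclast-like cells and fibroblasts. Of 11782 genes with at least 50 UMIs over both libraries, 1264 (10.7%) were at least 2-fold higher and 1946 (16.5%) at least 2-fold lower in diabetic day 5, with an interval that leaves out 1 (the rule for all genes called higher or lower below). In a sum over all cells, fewer cells of a type and less RNA per cell cannot be told apart. The share of each class alone, with the 7 classes of at least 20 control cells (the unnamed cluster included) kept at their control levels, put 703 of the 1264 higher genes (55.62%) and 385 of the 1946 lower genes (19.78%) past 2-fold in the same direction. This left out cells named by NK cell, fibroblast or mast cell markers, and with them the counts were 731 (57.83%) and 462 (23.74%). The shares named below are those of the 7 classes. The split depends on scaling, since 39.4% of the genes apart were higher with totals and 49.8% with TMM factors, which shift every log2 ratio by 0.16.

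Il23a, the subunit particular to IL-23, was at 163 CPM in diabetic day 5 and 5.10 CPM in control day 5, 32.0-fold higher (interval 27.2 to 38.0). The share of the classes alone would give 3.94-fold. Over the 4 days Il23a was at 57.3, 99.5, 163 and 40.1 CPM in the diabetic group and at 149, 73.2, 5.10 and 5.98 CPM in the control group, so the diabetic level was the lower one at first and the groups were farthest apart on day 5. Il17a was at 35.8 and 2.38 CPM (15.03-fold higher, interval 11.8 to 19.5) and Il17f at 43.8 and 4.42 CPM (9.91-fold higher). Of the 12 genes listed for the IL-23 and IL-17 axis 9 were higher and 0 lower, with a median log2 ratio of 2.24, beside a median of -0.23 over all genes compared. Cd163l1, a scavenger receptor of IL-17-making gamma-delta T cells, was 24.7-fold higher at 42.0 and 1.70 CPM.

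Several genes of neutrophils had large ratios as well, though not all did. Of the 12 neutrophil granule genes compared 5 were higher and 1 was lower. Their median log2 ratio was 0.59, and the list summed to 2527 CPM in diabetic and 2586 CPM in control day 5. Slpi, an inhibitor of neutrophil elastase, was at 2858 and 164 CPM (17.4-fold higher, interval 16.9 to 18.0), where the shares give 5.22-fold. Il1f9, which encodes the IL-1 family cytokine IL-36 gamma, was at 612 and 32.5 CPM (18.9-fold higher, shares 7.26-fold). Stfa2l1 and Stfa1, cysteine protease inhibitors of the stefin family, were 27.1-fold and 31.6-fold higher. Of the 20 genes listed as inflammatory effectors 16 were higher and 0 lower, with a median log2 ratio of 1.62. Among them Nos2, inducible nitric oxide synthase, was at 21.1 and 1.56 CPM and Tnf at 1933 and 622 CPM.

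Genes of rare cells were seen in the diabetic library alone or nearly so. Mcpt8 and Prss34, proteases of basophils, had 162 and 84 UMIs in the diabetic library and 0 in the control library, which makes them at least 74.1-fold and at least 38.4-fold higher against a floor of 3 counts per library. The Mcpt8 UMIs came from 18 cells, with 41.4% of them in 1 cell, and 71.4% of the Prss34 UMIs lay in 1 cell. Il5, an eosinophil growth factor, had 108 and 0 UMIs (at least 49.4-fold higher), from 19 cells with 38.0% in 1 cell. Klra4, an NK cell receptor, had 324 and 8 UMIs and was 55.6-fold higher (interval 27.9 to 130), where the shares of all classes, NK cell-like cells included, give 18.04-fold. In all 17 of 18 cytotoxic genes were higher with a median log2 ratio of 2.83.

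On the lower side stood macrophage, osteoclast and matrix genes. Retnla, a secreted protein of macrophages in a type 2 setting, had 101 UMIs in the diabetic and 8778 in the control library (4.71 and 298 CPM), 63.3-fold lower (interval 52.1 to 77.9), where the shares give a ratio of 0.392. Ctsk, the collagen-cutting cathepsin of osteoclasts, was at 85.2 and 1985 CPM (23.3-fold lower, interval 22.2 to 24.4). Igf1, a growth factor, was at 30.9 and 263 CPM. Of the 20 resident macrophage genes listed 16 were lower, with a median log2 ratio of -2.26, as were 9 of 15 osteoclast genes and 17 of 30 lysosome genes. In the first list 1 gene, Timd4, was higher, in the second 1 gene, Car2, and in the third 0. All 9 fibroblast genes compared were lower, with a summed level of 23.6 and 405 CPM, and Col3a1 among them was 32.9-fold lower. Outside that list, Cilp, Mucl1, C1qtnf3 and Thbs2 had 165, 124, 106 and 103 control UMIs and 0 diabetic ones, Eln had 364 and 4, Col5a2 312 and 4 and the matrix-linked Cyr61 321 and 4. Of the control UMIs 59.4% lay in 1 cell for Cilp, 80.65% for Mucl1 and 72.25% for Eln. Control day 5 held 10 fibroblast cells and diabetic day 5 held 0, in a sort for leukocytes.

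Neutrophil-like cells of the diabetic wound carried more mRNA of the cytokines Il23a, Il1a and Tnf and of the chemokines Ccl3, Ccl4, Cxcl2 and Cxcl3. Of 6635 genes compared in this class 302 (4.55%) were higher and 1765 (26.6%) were lower. With cells named singly the counts were 177 and 547, and in cluster 0 alone 96 and 347. Of those higher 240 were above the lowest class, and of those lower 97. With TMM factors in place of totals, which shift the log2 ratios of this class by 0.64, 64.9% of the genes apart were higher, against 14.6% with totals. The largest share of diabetic cells lay in cluster 2 (39.6%), and 68.7% of control cells lay in cluster 0. Cluster 2 held only 29 control cells, in which macrophage genes such as Cd36 (1862 CPM) stood high. Cluster 0 is thus the best shared cluster, with 393 diabetic and 182 control cells.

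Il23a was at 498 CPM in diabetic and 24.8 CPM in control neutrophil-like cells, 20.1-fold higher (interval 13.7 to 30.8). In the T cell-like cells of the same libraries it was at 14.98 and 0.978 CPM. With each cell thinned to 1000 UMIs, 16.2% of diabetic and 2.01% of control neutrophil-like cells had an Il23a UMI, against 1.59% and 0% of the T cell-like cells (25.2%, 5.66%, 5.83% and 0.595% before thinning, at median depths of 2897, 2484, 4403 and 3921.5 UMIs). Thinning left out 116 diabetic and 16 control neutrophil-like cells. The ratio of Il23a was 43.0 in cluster 2 (1111 and 25.8 CPM), 3.33 in cluster 0 and 0.798 in cluster 6, so it was not shared by all clusters of the class.

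Il1a, the alarmin IL-1 alpha, was at 2175 and 249 CPM (8.75-fold higher, interval 7.74 to 9.93), and 2.72-fold higher within cluster 0. Tnf was at 4656 and 996 CPM (4.67-fold higher, interval 4.39 to 4.98). The ratio of Tnf was 1.20 in cluster 0, 7.39 in cluster 2, with its 29 control cells, and 1.26 in cluster 6, and the shares of the clusters alone give 1.24. Such shares are over clusters 0, 2 and 6, without clusters 7 and 11 (151 and 113 diabetic cells), and give 1.94 for Il23a and 1.75 for Il1a. They take the level of cluster 2 from its 29 control cells. Ccl4 was at 6913 and 1540 CPM (4.49-fold higher), with ratios of 1.71, 14.0 and 1.47 in clusters 0, 2 and 6, and the shares of the clusters alone give 1.13. Cxcl3, a neutrophil attractant that acts on CXCR2, was at 3010 and 689 CPM (4.37-fold higher, interval 4.06 to 4.71) and was 3.36-fold, 3.72-fold and 1.94-fold higher in the 3 clusters. Ccl3 was at 17180 and 4750 CPM (3.62-fold higher) and Cxcl2, whose promoter is printed above, at 46270 and 21380 CPM (2.16-fold higher, interval 2.13 to 2.19). Slpi was at 7924 and 2322 CPM (3.41-fold higher), and 1.67-fold, 11.7-fold and 2.39-fold higher in the 3 clusters. The chemokine lists did not move in one direction. Of 7 genes of neutrophil chemokines and their receptors 2 were higher and 2, Cxcl5 and Ppbp (14.7 and 38.1 CPM), were lower, with a median log2 ratio of -0.40. Of 8 MIP chemokine genes and receptors 2 were higher and 2, Ccl5 (47.8 and 181 CPM) and Ccl9 (463 and 1108 CPM), were lower, with a median of 0.02. Of 6 genes of monocyte attraction 0 were higher and 5 lower, with a median of -1.49. These 5 were not above the lowest class, macrophage markers summed to 2459 and 10130 CPM in these cells, and 95.65% of the control Cxcl5 UMIs lay in 1 cell.

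Of the 18 inflammatory effectors compared in neutrophil-like cells 7 were higher and 0 were lower, with a median log2 ratio of 0.97 beside -0.43 over all genes of the class. They were Acod1, which makes itaconate, the acute phase gene Saa3, Slpi, Tnf, Nos2, the butyrate receptor gene Hcar2 and Inhba, a subunit of activin A. The median was positive under each scaling and naming of cells tried, at 0.38 with cells named singly and 1.61 with TMM factors. Inhba was at 507 and 118 CPM (4.29-fold higher). In the IL-1 family 4 of 14 genes were higher and 3 lower, of which 1 was above the lowest class. Besides Il1a these 4 included Il1f9 (2032 and 792 CPM, 2.57-fold), the receptor antagonist Il1rn (7321 and 2585 CPM, 2.83-fold) and the inflammasome sensor Nlrp3 (4454 and 2182 CPM, 2.04-fold). Il1b itself was at 10340 and 6627 CPM, a ratio of 1.56 (interval 1.52 to 1.599) that was 0.692 in cluster 6. The median of the family, 0.42, was -0.07 with cells named singly.

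Genes with other roles were higher as well. Serpinb2, an inhibitor of plasminogen activators, was at 193 and 13.3 CPM (14.5-fold higher, interval 8.59 to 26.6), and Upp1, uridine phosphorylase, at 301 and 55.3 CPM (5.44-fold higher, interval 4.19 to 7.19). Ckap2l, a gene of the mitotic spindle, had 204 UMIs in diabetic and 2 in control cells, a ratio of 17.5 with an interval of 4.78 to 145. Cd274, the checkpoint ligand PD-L1, was at 951 and 292 CPM (3.25-fold higher), and Slfn4, an interferon-inducible myeloid gene, at 3536 and 1169 CPM (3.03-fold higher). Of 29 genes of glycolysis and hypoxia 3 were higher and 0 lower, namely Egln3 (149 and 45.7 CPM), the oxygen-sensing hydroxylase gene, Ero1l (179 and 79.1 CPM) and Ankrd37. Among 22 genes of NF-kappaB feedback 3 were higher (Nfkbiz, Tnf and Traf1) and 2 lower, with a median of 0.61 that was 0.03 within cluster 0.

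Of 11 neutrophil granule genes 1, Lcn2 (1614 and 687 CPM), was higher and 2, Ngp and Cybb (203 and 821 CPM), were lower, with a median of -0.19. The 10 neutrophil markers summed to 30670 and 19690 CPM. S100a8 and S100a9, the calprotectin subunits, were at 9369 and 5068 CPM and at 10100 and 5800 CPM, ratios of 1.85 and 1.74. Cxcr2, the receptor for Cxcl2, was at 683 and 633 CPM, and Csf3r, the G-CSF receptor, at 667 and 788 CPM. Mmp9, a gelatinase of the granules, was at 396 and 772 CPM. S100a8, S100a9, Cxcr2, Csf3r and Mmp9 did not pass the 2-fold rule.

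All 13 resident macrophage genes compared in neutrophil-like cells were lower, with a median log2 ratio of -2.15, beside the macrophage marker sums of 2459 and 10130 CPM given above. Their part in this result was not tested. Of 62 genes of oxidative phosphorylation 53 were lower, with a median of -1.50 that was -0.86 with TMM factors. Of 18 heat-shock genes 11 were lower. In both lists 0 of the lower genes were above the lowest class, a rule that genes used alike by all classes can hardly pass. The part of macrophage RNA in these 2 results was not tested. Among the genes above the lowest class, Fbxo32, a ubiquitin ligase of muscle wasting, was at 6.69 and 114 CPM (17.1-fold lower, interval 11.9 to 24.99), with 40.0% of its control UMIs in 1 cell, and Anpep, the aminopeptidase CD13, at 14.2 and 151 CPM (10.6-fold lower). Cd36, a fatty acid and debris receptor, was at 109 and 654 CPM (6.01-fold lower), Atp6v0d2, a proton pump subunit, at 18.6 and 143 CPM (7.68-fold lower), and AW112010 at 16.8 and 151 CPM (8.96-fold lower). Atp6v0d2 was also among the leading genes of the osteoclast-like cluster. Osteoclast markers summed to 107 CPM in diabetic and 1002 CPM in control neutrophil-like cells, and their part was not tested. The direction of AW112010 turned with cells named singly (log2 ratio 0.77), and 36.1% of its control UMIs lay in 1 cell. For Ngp and Lyz1 the control UMIs came mostly from 1 cell (95.45% and 72.4%).

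Over the days, Il23a, Il1a, Tnf, Ccl3 and Cxcl2 had their largest ratio in neutrophil-like cells on day 5. Il23a was at 139, 295, 498 and 165 CPM in the diabetic group on days 1, 3, 5 and 7 and at 340.0, 262, 24.8 and 26.0 CPM in the control group, which gives ratios of 0.410, 1.13, 20.1 and 6.35. The ratios of Il1a were 0.648, 2.52, 8.75 and 4.23, and those of Tnf 0.807, 1.55, 4.67 and 3.94. Ccl3 had ratios of 0.833, 1.33, 3.62 and 2.13, and Cxcl2 of 0.751, 0.994, 2.16 and 1.56. For these 5 genes the diabetic library was thus below the control library on day 1 and above it on days 5 and 7. In the diabetic group Cxcl2 was at 51120, 34740, 46270 and 30190 CPM and in the control group at 68060, 34950, 21380 and 19350 CPM, so the control level was lower at each later day.

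**Figure D3:**
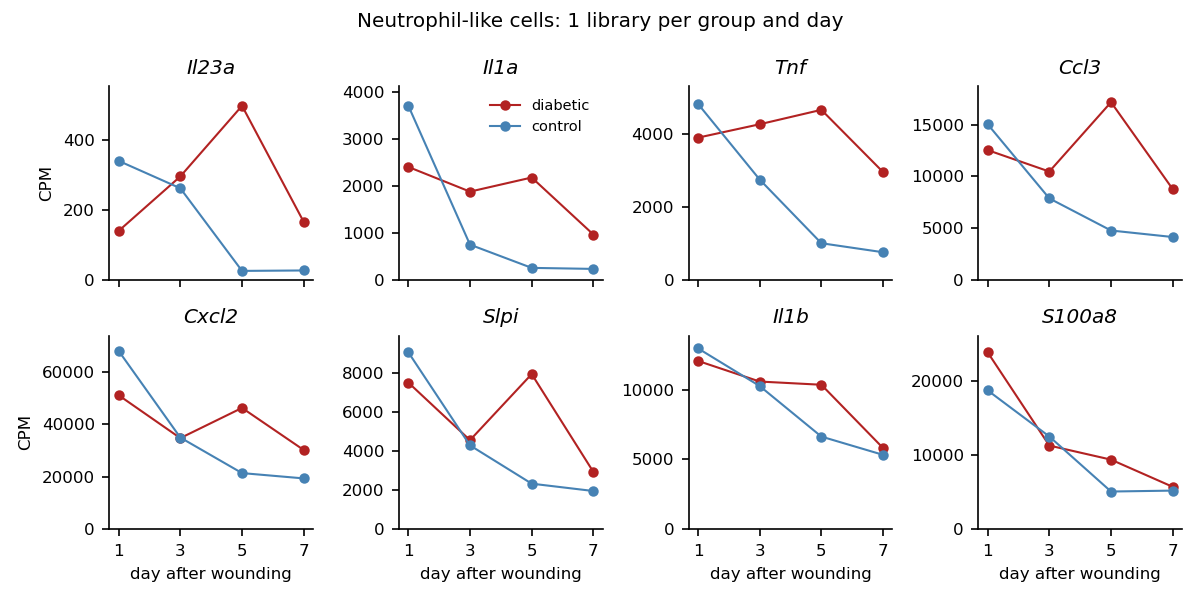
Level of 8 genes in neutrophil-like cells (y axis, CPM, from 0) on days 1, 3, 5 and 7 after wounding (x axis) in the diabetic (red) and control (blue) group, each point 1 library with no replicate. Il23a stood at 498 and 24.8 CPM on day 5, while on day 1 the diabetic point lies below the control point.

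Monocyte-like cells differed in fewer genes, with more mRNA of Inhba, Nos2, Plac8 and Vcan in the diabetic wound, and less mRNA of Gdf15, Ereg and some resident macrophage genes. Of 7482 genes 306 (4.09%) were higher and 261 (3.49%) lower, 120 and 106 of them above the lowest class, and the median log2 ratio of all genes was 0.02. Cluster 8, led by Vcan and Chil3, held 58.1% of the diabetic and 22.7% of the control cells, and cluster 4, led by Ppbp, held the rest. Those genes helped to form the clusters, so their ratios over the class are not independent of this makeup. The shares of the 2 clusters alone give 0.753 for Inhba, and the values for Plac8 and Chil3 are given below.

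Inhba was at 492 and 157 CPM (3.13-fold higher, interval 2.70 to 3.65), and it was 5.58-fold and 1.61-fold higher within clusters 4 and 8. Nos2 was at 52.4 and 13.5 CPM (3.90-fold higher, interval 2.36 to 6.91), and at 119 and 17.5 CPM within cluster 4. Of the 12 enzymes of arginine and polyamine use 3 were higher and 1 was lower. They included Nos2 and Ass1 (80.7 and 38.7 CPM, higher), which rebuilds arginine from citrulline. Among 19 inflammatory effectors 7 were higher, 3 of them above the lowest class, and 0 lower, with a median of 0.74. The 10 neutrophil markers summed to 1939 CPM in diabetic and 583 CPM in control monocyte-like cells, and their part was not tested.

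Plac8 was at 901 and 246 CPM (3.66-fold higher, interval 3.25 to 4.13), Chil3, a chitinase-like protein, at 335 and 106 CPM (3.16-fold higher), and Vcan, the proteoglycan versican, at 521 and 178 CPM (2.92-fold higher). Hp, haptoglobin, was at 92.6 and 23.5 CPM (3.93-fold higher), Plet1, a surface protein, at 65.9 and 10.9 CPM (6.03-fold higher), and AA467197 (305 and 97.5 CPM) was 3.13-fold higher. Has1, a hyaluronan synthase, had 95 and 2 UMIs (ratio 9.91, interval 2.67 to 83.0), and Rnf144a, a ubiquitin ligase, 102 and 1 UMIs (ratio 21.3, interval 3.73 to 848). With cells named singly from their markers the log2 ratio of Plac8 moved from 1.87 to 0.68 and that of Chil3 from 1.66 to 0.53. The shares of clusters 4 and 8 alone give 1.197 for Plac8 and 1.8 for Chil3. Ccr2, the receptor of classical monocytes, was at 520.5 and 354 CPM and was not 2-fold apart.

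Lower in diabetic monocyte-like cells were Gdf15, a stress cytokine, at 153 and 599 CPM (3.93-fold lower, interval 3.55 to 4.34), and Ereg, the EGF receptor ligand epiregulin, at 44.9 and 216 CPM (4.81-fold lower, interval 4.03 to 5.75). Hbegf, another ligand of that receptor, was at 51.7 and 124 CPM (2.41-fold lower). Together 4 of 15 wound growth factors were lower and 1 was higher, with a median of -0.30. Of 14 resident macrophage genes 6 were lower, 3 of them above the lowest class, and 0 higher, with a median of -0.95. Among macrophage genes Pf4 was at 539 and 2009 CPM, Gpnmb at 123 and 429 CPM and the iron exporter Slc40a1 at 3.68 and 31.1 CPM. In this class the macrophage markers summed to 6863 CPM in the diabetic and 15390 CPM in the control cells, and their part in the difference was not tested. Retnla (30.9-fold lower) and Lyz1 (5.09-fold lower) rested mostly on 1 control cell, and the chemokine Ccl12 was 3.63-fold lower.

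Of 26 interferon-stimulated genes 5 were lower and 1 was higher. They were Ifit1 (46.3 and 152 CPM), Oasl1 (115 and 249 CPM), Mx1, Ifi44 and Usp18. The median of this list, -0.64, turned to 0.64 with cells named singly, so its direction was not stable. Egln3, higher in diabetic neutrophil-like cells, was lower in diabetic monocyte-like cells at 37.7 and 79.9 CPM (2.12-fold lower, a ratio of 0.472), where the shares of the 2 clusters alone give 0.583.

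Macrophage-like cells were few in the diabetic wound, and those present held far less Retnla and less mRNA of Lyve1, Fcna and other resident macrophage genes. Of 9630 genes 292 (3.03%) were higher and 322 (3.34%) lower, 147 and 149 of them above the lowest class, with a median log2 ratio of -0.02. Most cells of both libraries lay in cluster 9 (56.4% of the diabetic and 67.3% of the control cells). With each cell weighted equally 1986 genes were 2-fold apart against 614 with sums.

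C1qa, the first component of complement, was at 1444 and 1555 CPM, and Apoe, the lipid carrier, at 10830 and 11050 CPM, ratios of 0.928 and 0.980. The mannose receptor Mrc1 was at 1066 and 1517 CPM and the hemoglobin receptor Cd163 at 160 and 189 CPM. Trem2 (645 and 804 CPM) and Gpnmb (687 and 968 CPM), both of lipid-laden macrophages, and Igf1 (252 and 405 CPM) were lower by less than 2-fold. Of 30 lysosome genes and 67 genes of oxidative phosphorylation 0 were 2-fold apart in either direction, with medians of -0.13 and -0.32. The 10 MHC class II genes compared also had 0 calls, with a median of 0.51.

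Retnla had 25 UMIs in the diabetic and 7701 in the control macrophage-like cells, at 18.4 and 479 CPM (26.0-fold lower, interval 17.6 to 40.2). It was detected in 3.87% of the diabetic and 45.6% of the control cells, and after thinning in 2.53% and 10.2%, against 0.227% and 7.95% in T cell-like cells, which should lack it (median depths of 6583 and 10946.5 UMIs in the macrophage-like cells). Cluster 13 held most of it in the control library at 2581 CPM, against 42.6 CPM in the diabetic cells of the cluster, and in cluster 9 it was at 6.77 and 62.1 CPM. In cluster 3 the levels were 73.0 and 102 CPM, so the difference was not of the same size in all clusters. Over the 4 days Retnla in this class was at 453, 105, 18.4 and 356 CPM in the diabetic group and at 522, 24.7, 479 and 156 CPM in the control group. The order of the groups was thus not the same on each day, with the diabetic library higher on days 3 and 7.

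Of 20 resident macrophage genes 5 were lower and 0 higher, with a median of -0.47. Lyve1, a hyaluronan receptor of macrophages along vessels, was at 23.6 and 101 CPM (4.27-fold lower, interval 3.01 to 6.27), and Fcna, ficolin A, at 26.5 and 87.0 CPM (3.28-fold lower). The lectin gene Cd209f was at 28.7 and 66.6 CPM, the chemokine gene Ccl24 at 7.36 and 27.0 CPM and Slc40a1 at 39.0 and 128 CPM. Vsig4, a complement receptor, had 0 UMIs in diabetic and 132 in control cells (at least 3.72-fold lower), Gfra2, a receptor of the GDNF family, 0 and 154 UMIs (at least 4.34-fold lower), and Cd207, langerin, 0 and 150 UMIs (at least 4.22-fold lower). Cyr61, Ppp2r3a and Adm had 0 diabetic UMIs as well, with 178, 175 and 102 in the control cells. Among 21 lipid-associated genes 2 were lower and 0 higher, including Fabp4, a fatty acid carrier, at 19.9 and 43.6 CPM. Cxcl9, an interferon-induced chemokine, had 2 and 256 UMIs, 10.8-fold lower with an interval of 2.96 to 89.7, and its direction turned (log2 ratio 0.23) with clusters of resolution 1.6.

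Among the genes higher in diabetic macrophage-like cells, Thbs1, the matrix protein thrombospondin, was at 1558 and 726 CPM (2.15-fold higher, interval 2.05 to 2.25), Ppbp, a platelet and myeloid chemokine, at 214 and 90.5 CPM, and Vcan at 52.3 and 14.98 CPM (3.49-fold higher, interval 2.64 to 4.56). Inhba was at 52.3 and 21.8 CPM (2.40-fold higher) and Mcemp1, a myeloid membrane protein, at 53.0 and 14.0 CPM (3.79-fold higher). The monocyte and neutrophil markers in this class stand beside these ratios, with monocyte markers at 1910 and 1068 CPM and neutrophil markers at 1811 and 353 CPM, and Cxcr2 was at 15.5 and 3.29 CPM. Their part was not tested. Rasip1 (5.33-fold), Sec22c (3.95-fold), Lax1 (4.16-fold) and Dcstamp, a fusion protein of osteoclasts (2.92-fold), were higher at levels of at most 24.3 CPM. The keratin gene Krt17 and Lgals7, a galectin of keratinocytes, rested mainly on 1 diabetic cell.

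**Figure D4:**
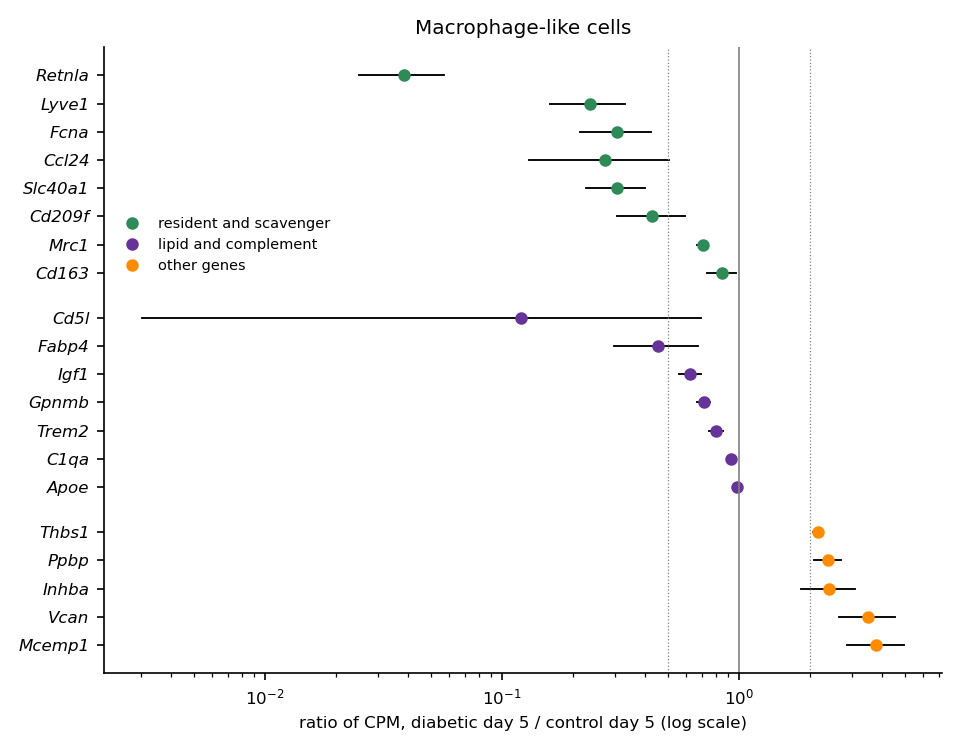
Ratio of CPM in diabetic over control macrophage-like cells on day 5 (x axis, log scale) for 20 named genes (y axis), as points with exact 95% Poisson intervals that cover counting error only, coloured by group. The solid line marks 1 and the dotted lines 2-fold. Retnla lies farthest left, while C1qa and Apoe lie near 1.

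Dendritic-like cells of the diabetic wound carried less mRNA of cell cycle genes, of langerin and of some migratory genes. Of 7585 genes 220 (2.9%) were higher and 247 (3.26%) lower, 104 and 87 of them above the lowest class, and the median of all genes was 0.03. The 2 clusters of the class had nearly the same shares in both libraries (81.2% and 80.5% in cluster 5).

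Of the 12 MHC class II and 13 MHC class I genes listed 0 were 2-fold apart, in a class where few of all genes were, and H2-Ab1 was at 18960 and 17670 CPM. The lectin gene Cd209a was at 495 and 414 CPM. Ccr7, the receptor that leads dendritic cells to lymph nodes, was at 1084 and 948 CPM and Fscn1, the actin bundler of mature dendritic cells, at 1028 and 1368 CPM. Of 18 genes of migratory dendritic cells 5 were lower and 0 higher, with a median of -0.25. They included Il12b, the p40 subunit of IL-12 and IL-23, at 43.3 and 145 CPM (3.34-fold lower), the chemokine genes Ccl17 at 94.8 and 216 CPM (2.28-fold lower) and Ccl5 at 271 and 636 CPM (2.35-fold lower), and Apol7c at 30.0 and 108 CPM (3.58-fold lower).

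Cd207, the lectin of Langerhans cells, was at 21.7 and 246 CPM (11.3-fold lower, interval 9.05 to 14.3). It was found in 12 diabetic and 30 control cells, with 59.1% of its diabetic UMIs in 1 cell. On days 1, 3, 5 and 7 it was at 66.5, 135, 21.7 and 55.3 CPM in the diabetic and at 26.7, 18.7, 246 and 25.6 CPM in the control group, so that control day 5 was the library with the highest level. H2-M2, a nonclassical MHC gene of mature dendritic cells, was at 12.6 and 120.1 CPM (9.55-fold lower), and Ehf, an epithelial transcription factor, at 6.29 and 57.6 CPM (9.16-fold lower). Sod3 (6.92-fold) and Clu (9.55-fold), both of secreted proteins, and Igkc (14.4-fold), the kappa chain of B cells, were lower too. The control Igkc UMIs came from 4 cells, with 48.65% of them in 1 cell.

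Of 23 cell cycle genes 10 were lower, 9 of them above the lowest class, and 0 higher, with a median of -0.84. In the same cells osteoclast markers summed to 159 and 481 CPM and macrophage markers to 1160 and 5146 CPM. Their part in this difference was not tested. Ube2c, of the anaphase-promoting complex, was at 3.26 and 53.8 CPM (16.5-fold lower, interval 9.39 to 31.3), Birc5, survivin, at 5.12 and 44.6 CPM (8.70-fold lower) and Top2a, topoisomerase II, at 28.2 and 97.3 CPM (3.45-fold lower). The median stayed negative under both other scalings, at -0.81 with TMM factors and -0.83 with each cell weighted equally.

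Among the genes higher in diabetic dendritic-like cells, Plac8 was at 582 and 112 CPM (5.20-fold higher, interval 4.51 to 6.02). Ccr9 (35.2 and 3.26 CPM, 10.8-fold), a homing receptor, and Siglech (46.6 and 9.24 CPM, 5.04-fold, interval 3.07 to 8.83), a lectin, are markers of plasmacytoid dendritic cells, and after thinning 1.58% and 1.59% of the cells had a Siglech UMI. Ly6d had 76 and 1 UMIs (ratio 32.6, interval 5.67 to 1303), with 61.8% of the diabetic ones in 1 cell, and Thy1 was at 77.6 and 17.4 CPM (4.46-fold higher). Il1f9 (53.8 and 1.63 CPM) and Stfa2 (56 and 0 UMIs) are genes of neutrophils, whose markers summed to 3360 and 1723 CPM in this class. AA467197 was 3.32-fold higher at 292 and 88.0 CPM. Of 24 interferon-stimulated genes 8 were higher, 1 of them above the lowest class, with a median of 0.76, the other sign than in monocyte-like cells (-0.64, 0.64 with cells named singly), and this difference between classes was not tested.

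T cell-like cells of the diabetic wound carried more mRNA of IL-17-making gamma-delta T cells and of cytotoxic granules. Of 6857 genes 378 (5.51%) were higher and 488 (7.12%) lower, of which 288 and 81 were above the lowest class, with a median of 0.04. Cluster 12, the gamma-delta cluster led by Trdc and Il17f, held 54.8% of the diabetic and 32.7% of the control cells, and cluster 10 held the rest. Il17a, Hlf and Cd163l1 were also among its leading genes. The ratios of such genes over the class are thus not independent of this makeup.

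Il17a was at 299 CPM in diabetic and 51.9 CPM in control T cell-like cells (5.76-fold higher, interval 4.36 to 7.77), and within cluster 12 at 597 and 172 CPM (3.47-fold higher). After thinning 12.0% and 5.96% of the cells had an Il17a UMI, against 0.443% and 0% of the neutrophil-like cells. Il17f was at 390.0 and 118 CPM (3.30-fold higher, interval 2.72 to 4.02) and 1.72-fold higher within cluster 12. Il23r, the receptor for IL-23, was at 113 and 27.4 CPM (4.13-fold higher, interval 2.79 to 6.33) and Il1r1, the receptor for IL-1, at 223 and 49.9 CPM (4.47-fold higher). Of the 8 genes of the IL-23 and IL-17 axis compared 6 were higher and 0 lower, with a median of 1.47. Il22, another cytokine of the axis, was at 30.0 and 20.5 CPM with an interval of the ratio of 0.885 to 2.50. On days 1, 3, 5 and 7 the ratio of Il17a was 0.543, 3.25, 5.76 and 0.502, so day 5 was the day of the largest ratio.

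Of 16 gamma-delta T cell genes 10 were higher and 0 lower, with a median of 1.42. This count is over the class, of which cluster 12 held 54.8% of the diabetic and 32.7% of the control cells. Cd163l1 was at 340 and 36.2 CPM (9.38-fold higher, interval 6.75 to 13.4) and 5.13-fold higher within cluster 12. Blk, a kinase of IL-17-making gamma-delta T cells, was at 297 and 53.8 CPM (5.52-fold higher), and Sox13, a transcription factor of that lineage, at 35.1 and 5.87 CPM (5.98-fold higher). Trdc itself, the constant gene of the delta chain, was at 1075 and 635 CPM (ratio 1.69) over the class and had a ratio of 0.901 within cluster 12. The Trdc ratio of this cluster was thus close to 1, while those of Il17a and Cd163l1 were above 3. Hlf, a circadian transcription factor, was at 551 and 123 CPM (4.47-fold higher, interval 3.72 to 5.41), and Ramp1, a subunit of the receptor for the neuropeptide CGRP, at 80.9 and 17.6 CPM (4.60-fold higher). Il2ra, the IL-2 receptor alpha chain, was at 1381 and 524 CPM and 7.02-fold higher within cluster 12. Over the class, Il5 had 98 and 0 UMIs (at least 14.3-fold higher), from 9 diabetic cells with 41.8% of the UMIs in 1 cell. Tpbg had 85 and 4 UMIs (9.30-fold, interval 3.50 to 34.9), and Epha2 49 and 1 UMIs (ratio 21.4).

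Of 15 cytotoxic genes 6 were higher and 0 lower, with a median of 0.74 that was 0.11 with each cell weighted equally. Gzma, granzyme A, was at 152 and 15.7 CPM (9.74-fold higher, interval 5.91 to 17.2), Gzmb at 597 and 298 CPM (2.0-fold higher) and Gzmc at 113 and 25.4 CPM (4.46-fold higher). Cd8a was at 96.3 and 32.3 CPM (2.98-fold higher) and Cxcr3, a homing receptor of effector T cells, at 50.5 and 14.7 CPM (3.44-fold higher). NK cell markers summed to 2338 and 1261 CPM in this class, and the part of NK cells in these ratios was not tested. Ifng was at 48.4 and 37.2 CPM with an interval of the ratio of 0.894 to 1.93. Trac, the alpha chain gene, was at 771 and 779 CPM. Foxp3, the factor of regulatory T cells, was at 92.04 and 134 CPM and Ctla4 at 277 and 310 CPM, and of 15 genes of these cells 1, Il2ra, was higher and 2, Ikzf4 (18.8 and 45.0 CPM) and Il10 (65.1 and 171 CPM), were lower, with a median of -0.18. Pdcd1, the checkpoint receptor PD-1, was at 163 and 62.6 CPM (2.60-fold higher), and within cluster 12 at 223 and 14.95 CPM.

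In T cell-like cells all but 1 of 12 resident macrophage genes and 21 of 28 lysosome genes were lower, in a class in which macrophage markers summed to 1588 and 10130 CPM. Ccl7 (39.0 and 480 CPM), Ccl8 (59.1 and 425 CPM), Ccl12 (6.42 and 74.4 CPM), F13a1 (45.8 and 272 CPM), Gas6 (11.1 and 107 CPM), Abca9 (1.71 and 47.9 CPM) and the enkephalin gene Penk (50.1 and 361 CPM) led the lower genes. Of 29 cell cycle genes 5 were lower and 0 higher, among them Birc5 at 55.7 and 119 CPM and Cdk1 at 21.0 and 72.4 CPM. Birc5 was also among the 10 leading genes of the osteoclast-like cluster. Osteoclast markers summed to 60.4 and 549.8 CPM in T cell-like cells, and their part was not tested. In the other classes too the listed cell cycle genes were called in the lower direction alone. They were 5 of 11 in neutrophil-like, 5 of 15 in monocyte-like and 7 of 29 in macrophage-like cells. In the same order 0, 1 and 1 of them were above the lowest class, and 26.6%, 3.49% and 3.34% of all genes compared were lower. Osteoclast markers summed to 107 and 1002 CPM in neutrophil-like and to 150 and 569 CPM in monocyte-like cells.

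**Figure D5:**
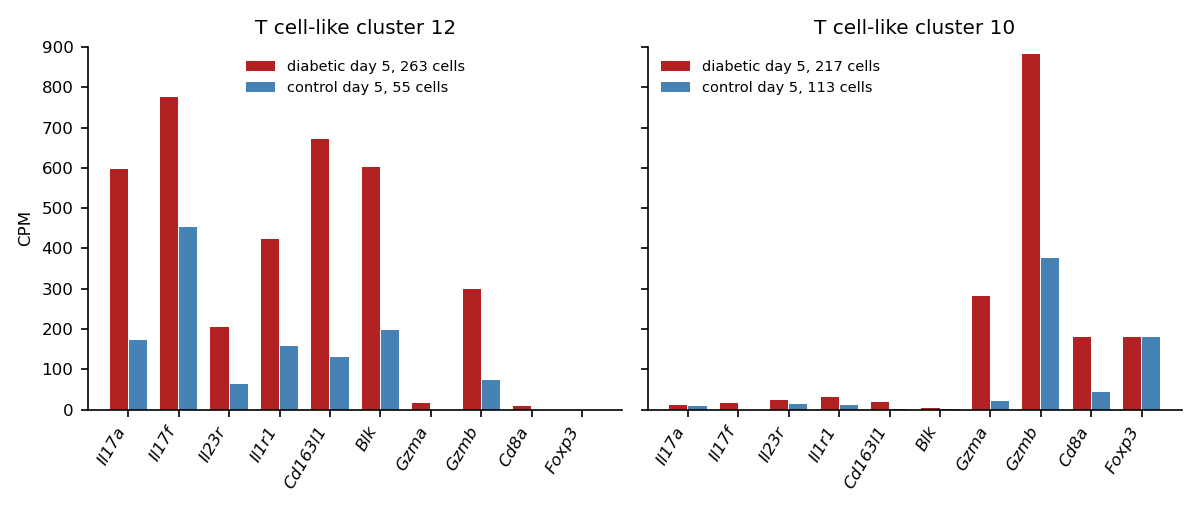
Level of 10 genes (y axis, CPM, from 0) in the 2 T cell-like clusters on day 5, for diabetic (red) and control (blue) cells, 1 library each with no replicate. In cluster 12 Il17a stood at 597 and 172 CPM, and in cluster 10 Foxp3 stood at 181 and 182 CPM.

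NK cell-like cells were 107 in diabetic and 8 in control day 5, and their sums are given with no comparison. Gzma was at 2843 CPM (interval 2724 to 2966) in the diabetic cells and at 3505 CPM (interval 2968 to 4110) in the control cells, and Il2rb, the IL-2 receptor beta chain, at 2778 and 2808 CPM. Perforin (Prf1) was at 282 and 789 CPM, and the cytokine Ifng at 208 and 511 CPM. Ncr1, the receptor NKp46, had 53 UMIs and 1 UMI, and Klra4 307 and 6 UMIs. The large ratios of Gzma, Klra4 and Ncr1 over all cells thus stand beside a share of NK cell-like cells of 2.56% and 0.245%.

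Across the classes, 13 of 5574 genes compared in all 5 were higher in each of them and 3 were lower in each. The 13 hold Slpi, Lcn2, Stfa2l1, Il1f9, Hcar2, Slfn4 and Chil1, genes of neutrophils, and Gzma, Gzmb and Il2rb, genes of NK cells, whose RNA was more frequent in the whole diabetic library. The 3 lower genes were Retnla, Atp6v0d2 and Idh2. Genes at their highest level in 1 class and found in all of them at low levels are not independent results of 5 classes.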

How the data were processed

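CD45+ cells of diabetic and control wounds were profiled in 8 libraries, 1 per group and day, each from 5 pooled mice. Per the submitters' processing notes reads were trimmed with fastp 0.20.1. The study's methods name UMI-tools, STAR and an Ensembl mouse genome, while the labels name mm9. The methods describe BD Rhapsody libraries and the record names 10X. The authors deposited tables of whole-number UMI counts, genes by barcodes, without normalization and before any filter on cells.

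Cells were kept, normalized to 10000 per cell, log transformed and clustered over all 8 libraries with scanpy 1.11.5 in Python 3.11.15 (2000 variable genes, 10 principal components, 30 neighbours, Leiden resolution 0.8 with leidenalg 0.10.2), which gave 19 clusters. A cluster was named from markers with a mean log2 fold of at least 0.25 over the other cells, 20 CPM added, and at least 3 markers detected in 10% of its cells. Doublets were scored with Scrublet and not removed. UMIs of a class were summed per library, without mitochondrial genes, and scaled to CPM by the total of those genes. Ratios have exact conditional Poisson intervals. Genes needed at least 50 UMIs over both libraries and classes at least 20 cells in each. A ratio with 0 counts was set to a floor of 3. The members, marker lists and gene lists were chosen with earlier results of these data known.

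Named genes were, in each direction, the 10 over all cells and the 8 in each class (above the lowest class) whose interval bound was farthest from 1, without symbols of the Gm, Rik, Rpl, Rps and mt- kind, together with members that describe a list. Some genes that met the rule are not reported here. Values by cluster and the sums of markers in other classes were added after the data had been seen. Alternatives were another scaling (TMM), equal weight of cells, other filters, folds and namings, and clusters of resolution 1.6. The method, tested on simulated counts, recovered 80 to 100% of genes changed 3-fold. Those counts were drawn from the Poisson model that the intervals assume, with no spread between cells or mice and no free RNA. The recovery therefore says nothing on errors from these sources. Numerical work used numpy 2.4.6, scipy 1.17.1 and pandas 2.3.3, and figures matplotlib 3.10.9.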

Additional observations from a re-analysis of the deposited data

Results flagged for a closer look

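Egln3, the gene of an oxygen-sensing prolyl hydroxylase, stood on opposite sides in 2 classes. It was higher in diabetic neutrophil-like cells (149 and 45.7 CPM, a log2 ratio of 1.70) and lower in diabetic monocyte-like cells (37.7 and 79.9 CPM, a log2 ratio of -1.08), a difference of 2.78 on the log2 scale. In monocyte-like cells the shares of the clusters alone give a ratio of 0.583, beside the 0.472 observed, and in neutrophil-like cells they give 0.731. The difference between the classes was not tested, since each class has 1 library a side.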

How the results depend on the processing

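No paired analysis was possible because each group has 1 library, and for the same reason no replicate could be left out. Of the counts of genes apart, 44 of 62 under the alternatives stayed within 1.5 times the reported count. With a 3-fold limit the counts were 1468 of all cells, 784 of neutrophil-like, 156 of monocyte-like, 243 of macrophage-like, 161 of dendritic-like and 345 of T cell-like cells. With at least 200 UMIs they were 805, 181, 243, 136 and 294 in these 5 classes. Fewer genes were then compared, and the share of them called was smaller too. It was 22.8, 4.17, 3.52, 3.18 and 9.37% in the same order, against 31.15, 7.58, 6.38, 6.16 and 12.63% as reported. With at least 10 UMIs the counts were 3133 in neutrophil-like, 966 in monocyte-like, 1042 in dendritic-like and 1578 in T cell-like cells. In neutrophil-like cells 2067 genes became 724 with cells named singly and 443 in cluster 0 alone. In macrophage-like cells 614 became 1986 with each cell weighted equally; the cause was not tested. TMM factors turned the share of higher genes among neutrophil-like calls from 14.6% to 64.9%, with 1085 higher and 588 lower. Of the values of genes named by the rule, 575 stayed inside the 95% interval of the reported ratio, 119 left it with the same direction and 4 turned direction. Those that left it were 43 of 100 with each cell weighted equally, 25 of 70 with cells named singly, 20 of 76 with resolution 1.6, 17 of 100 with TMM factors, 13 of 18 in the best shared cluster and 1 of 16 with osteoclast-like cells counted as macrophage-like. The 4 belong to 3 genes: AW112010 in neutrophil-like cells (log2 ratio 0.77 with cells named singly), Lgals7 in macrophage-like cells (-1.47 with cells named singly and -0.23 with resolution 1.6) and Cxcl9 in macrophage-like cells (0.23 with resolution 1.6). NK cell-like cells had no value under any alternative, with 8 control cells. Genes with few UMIs in 1 library have wide intervals.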

Other observations

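Over all cells, where 10.7% of all genes were higher and 16.5% lower, further gene groups were counted. Of 11 colony-stimulating factors and receptors 8 were higher and 0 lower, with a median log2 ratio of 1.56. Csf1, the macrophage growth factor, was at 253 and 34.8 CPM (7.25-fold higher, interval 6.78 to 7.76), where the share of the classes alone gives 4.06-fold, and Csf2rb, the common beta chain, at 1257 and 426 CPM (2.95-fold higher). Of 19 checkpoint and costimulation genes 15 were higher and 1, Lag3, was lower. Within T cell-like cells 1 of 18 was higher and 1 lower, with a median of -0.06, and within dendritic-like cells 1 of 13 was higher and 1 lower. In neutrophil-like, monocyte-like and macrophage-like cells 4 of 10, 4 of 10 and 4 of 14 were higher and 1, 1 and 2 lower. Ptgs2, the prostaglandin synthase COX-2, was at 2072 and 772 CPM (2.68-fold higher).

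Of 19 genes of dead cell clearance 9 were lower and 3 higher. Mertk, a receptor for dying cells, was at 13.3 and 79.0 CPM (5.92-fold lower) and its bridging ligand Gas6 at 23.8 and 192 CPM (8.05-fold lower), where the shares give ratios of 0.533 and 0.415. On day 3 the Mertk ratio had been 1.21 and the Gas6 ratio 1.03. Of 15 complement genes 8 were lower and 1, C3, was higher. Among 6 genes of monocyte attraction 3 were lower and 0 higher, with Ccl8 at 103 and 841 CPM (8.16-fold lower) on day 5 and the diabetic library higher on days 3 and 7 (ratios of 2.44 and 1.48).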
